A study of Macaca fascicularis with 2 samples.

Results

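Superoxide dismutases, catalase, peroxiredoxins and haem oxygenase are the enzymes considered here. The list named 10 genes (SOD1, SOD2, SOD3, CAT, HMOX1, PRDX1, PRDX2, PRDX3, PRDX5 and PRDX6), chosen by symbol. The choice did not use their measured values, but earlier results of these data were known when it was made. Of these, 9 were matched by symbol among the 28162 genes of the deposited files, and PRDX6 was not matched and is not analysed here. The RNA was taken from the gastrocnemius, a muscle of the calf, of the cynomolgus macaque (Macaca fascicularis). One library was from a lean sample given a chow diet, and the other from a non-lean sample given a high fat diet. The labels give no age, sex, number of animals or length of feeding, and no genetic change. With 1 library in each group there is no replicate error, so neither a test nor a p-value is reported. Every difference below is between these 2 libraries, and effects of the animal, the sampling or the preparation cannot be told apart from those of diet or leanness.

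Superoxide dismutases turn superoxide, a by-product of the respiratory chain and of oxidase enzymes, into hydrogen peroxide. Catalase and the peroxiredoxins then reduce the peroxide, the peroxiredoxins through reactive cysteines that thioredoxin restores. Haem oxygenase cuts haem into biliverdin, iron and carbon monoxide, and its inducible form is a common readout of oxidative stress. The enzymes are divided among compartments. SOD1, PRDX1 and PRDX2 work mainly in the cytosol, SOD2 and PRDX3 in mitochondria, SOD3 outside the cell, catalase in peroxisomes and HMOX1 on the endoplasmic reticulum. PRDX5 is grouped with the mitochondrial enzymes here, although it is also found in the cytosol and in peroxisomes.

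The lean library held 15983348 counts and the non-lean library 12731973 counts. Levels are given as CPM, counts brought to a common library size by the trimmed mean of M-values (TMM). On this scale 1 count was worth 0.0657 CPM for lean and 0.0748 CPM for non-lean muscle. A gene is called tested where its mean over both libraries was 1 CPM or more, and all 9 antioxidant genes were among the 13703 that met this limit. Intervals are 95% exact counting intervals (Clopper-Pearson, or the exact conditional interval where 2 genes are set against each other). They cover counting error only and say nothing about variation between animals. Skeletal muscle markers were abundant in both libraries, with ACTA1 at 1223115 and 804023 counts and CKM at 424516 and 250549. Transcript lengths were not used here, so counts do not rank the transcript levels of different genes. A gene called abundant, or the most abundant of a list, is so by counts alone.

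Most of the antioxidant genes were higher in non-lean muscle. For 7 of the 9 the interval lay above 0 on the log2 scale, against 25.8% of tested genes. Those of SOD3 and PRDX2 lay below 0, as did 28.7% of tested genes. Intervals are narrower where counts are higher, and tested genes reach down to 1 CPM. Among genes with a mean of at least 5 CPM, as all 9 had, the shares were 29.5% above 0 and 32.9% below. One gene, HMOX1, was at least 2-fold higher, which 4.9% of tested genes were, and none was at least 2-fold lower, which 7.15% were. The median log2 ratio of the 9 genes, non-lean over lean, was 0.44, and that of all tested genes was -0.01, with quartiles of -0.39 and 0.34. Scaling by total counts lifts the median of tested genes by 0.14 on the log2 scale. Under that scaling the intervals of SOD3 and PRDX2 both held 0, so that no antioxidant gene had an interval below 0, while the other 7 stayed above 0. Of all tested genes 35.0% then had intervals above 0 and 20.9% below. Under either of these scalings SOD3 and PRDX2 were below the median tested gene and the other 7 above it.

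**Figure D1:**
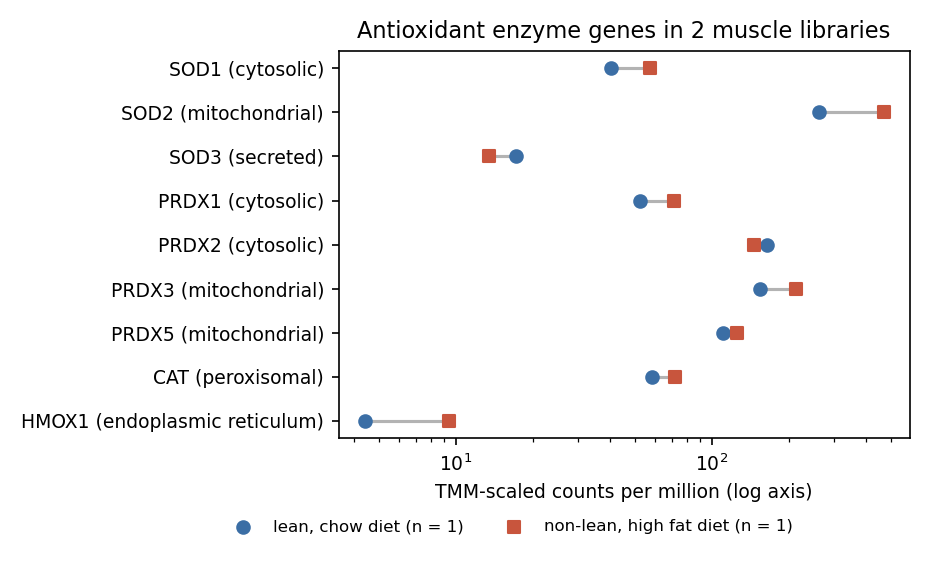
TMM-scaled CPM (log axis) of the 9 antioxidant genes in the lean library (circles) and the non-lean library (squares), 1 library each. SOD3 and PRDX2 are the genes whose square lies to the left of its circle.

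**Figure D2:**
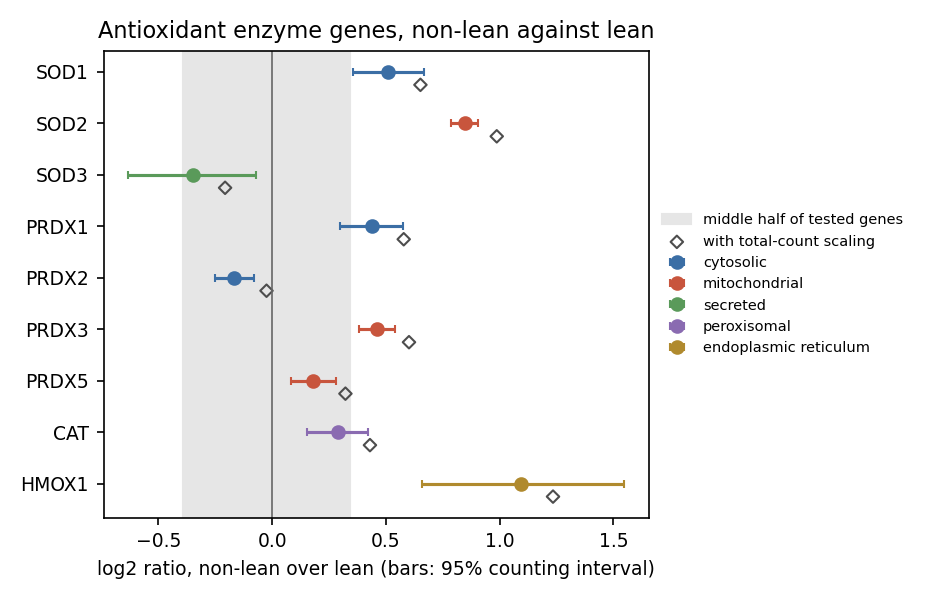
Log2 ratio (non-lean over lean) of each gene, with 95% counting intervals, coloured by compartment. The grey band spans the quartiles of all tested genes (-0.39 to 0.34) and open diamonds show total-count scaling, under which SOD3 and PRDX2 lie nearer to 0.

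SOD2, the manganese dismutase of the mitochondrial matrix, had 3962 counts (260.3 CPM) in the lean library and 6256 counts (467.9 CPM) in the non-lean library. It was 1.80-fold higher, a log2 ratio of 0.85 [0.79, 0.90], and 7.02% of tested genes had a ratio as high or higher. Without 1 of its 5 transcript models, described below, the log2 ratio was 0.49. SOD1, the copper and zinc dismutase of the cytosol, had 612 counts (40.2 CPM) in lean and 766 (57.3 CPM) in non-lean muscle. Its level was 1.42-fold higher, a log2 ratio of 0.51 [0.36, 0.67]. SOD3, the secreted dismutase that binds to the matrix around cells and vessels, had 261 counts (17.1 CPM) in lean and 180 (13.5 CPM) in non-lean muscle. It went the other way, 1.27-fold lower, at -0.35 [-0.63, -0.07], and its ratio was -0.21 [-0.49, 0.07] with total counts. The dismutases inside the cell were thus both higher in the non-lean library while the secreted one was not.

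A count ratio of 2 genes within a library does not depend on how the libraries are scaled. The pairs set against each other here were chosen after their values were seen. The SOD1 count was 2.34 times the SOD3 count in lean and 4.26 times in non-lean muscle, a 1.81-fold shift [1.45, 2.27]. For SOD2 against SOD3 the count ratio went from 15.2 to 34.8, a 2.29-fold shift [1.88, 2.80]. SOD2 against SOD1 went from 6.47 to 8.17, a 1.26-fold shift [1.12, 1.42]. The last of these shifts did not hold without 1 SOD2 transcript model, as given in the next paragraphs. The secreted enzyme stood apart from both of the others by more than counting error in these libraries, whatever the scaling.

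The SOD2 difference was unevenly divided among its 5 transcript models. The model NM_001287631.1 had 52.9 estimated counts in lean and 1427 in non-lean muscle. Its share of SOD2 counts was 1.33% (95% Clopper-Pearson interval 1.004 to 1.75) in lean and 22.8% (21.8 to 23.9) in non-lean muscle. The model with the most counts, XM_015448390.1, had 2143 and 2938, and XM_015448388.1 had 1059 and 1567. XM_005551519.2 went down, from 685 to 311 estimated counts, and its share from 17.3% to 4.98%. The remaining model, XM_015448389.1, held under 1% of the counts in both libraries, at 22.3 and 12.7.

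Without NM_001287631.1, an alternative added after the values were seen, SOD2 had 3909 and 4829 counts and a log2 ratio of 0.49 [0.43, 0.55]. This is 1.41-fold, beside 1.42-fold for SOD1. The count ratio of SOD2 to SOD1 was then 6.39 in lean and 6.30 in non-lean muscle, a 0.987-fold shift [0.879, 1.11] that held 1. Against PRDX3 the shift was 1.02-fold [0.953, 1.10], where it was 1.31-fold [1.22, 1.40] with all models, and against SOD3 it was 1.79-fold [1.47, 2.19]. Without this model the gap between SOD2 and the intracellular enzymes SOD1 and PRDX3 was within counting error, and the gap to SOD3 was not. That alternative kept XM_005551519.2, which went down. XM_015448390.1 and XM_015448388.1 had log2 ratios of 0.64 and 0.75, beside 0.51 for SOD1 and 0.46 for PRDX3. The alternative therefore cannot decide whether the gap rests on 1 model. NM_001287631.1 carried 59.9% of the unscaled count difference of the gene. Shifts of this size between models were common. Among 922 tested genes with at least 2 models and at least 1000 counts in both libraries, 22.3% had a model whose share moved by 21.5 percentage points or more, as in SOD2, and the median largest shift was 9.03 points. The authors' estimation divides reads among models that share sequence, so model values are less certain than their counting intervals. The labels name paired reads as well as single reads, and neither the layout of each library nor the annotation release is given in the sources used here. Whether either bears on the SOD2 models, and so on the SOD2 ratio, or on the ratios of other genes, was not tested.

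**Figure D3:**
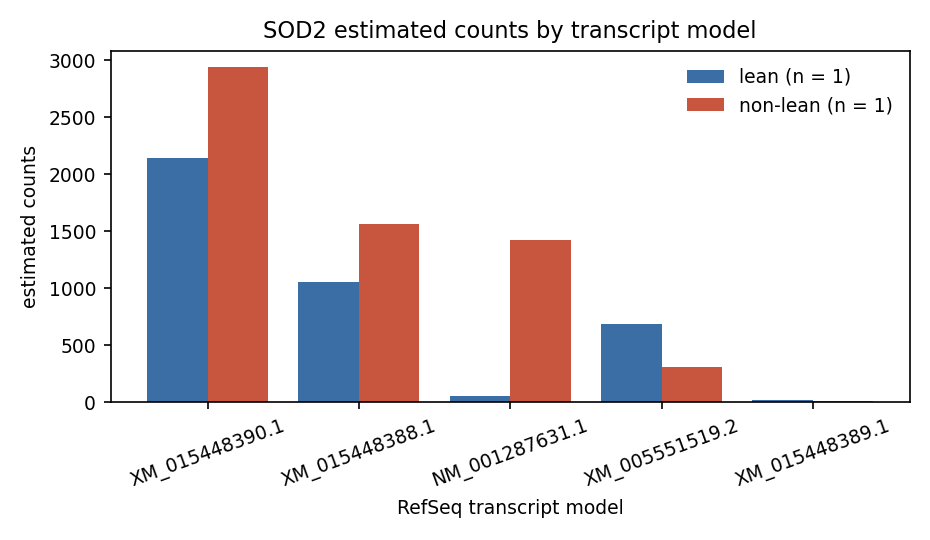
Estimated counts (not scaled) of the 5 SOD2 transcript models in the lean and the non-lean library, 1 library each. NM_001287631.1 goes from 52.9 to 1427, while XM_005551519.2 goes from 685 to 311.

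Of the 4 matched peroxiredoxins, 3 were higher in the non-lean library. PRDX3, the mitochondrial peroxiredoxin, had 2344 counts (154.0 CPM) in lean and 2833 (211.9 CPM) in non-lean muscle, a log2 ratio of 0.46 [0.38, 0.54]. PRDX5, an atypical peroxiredoxin that acts as a monomer, had nearly equal counts, 1681 (110.5 CPM) and 1674 (125.2 CPM). Since the non-lean library was smaller, these counts gave a log2 ratio of 0.18 [0.08, 0.28]. Among the mitochondrial enzymes SOD2, PRDX3 and PRDX5 were 1.80-fold, 1.38-fold and 1.13-fold higher, and SOD2 was 1.41-fold higher without 1 transcript model.

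PRDX1, a cytosolic peroxiredoxin and a known target of the transcription factor NRF2, had 797 counts (52.4 CPM) in lean and 948 (70.9 CPM) in non-lean muscle. It was 1.35-fold higher, at 0.44 [0.30, 0.57]. Its 2 transcript models both had higher estimated counts in the non-lean library, 350 and 448 for one and 446 and 500 for the other. PRDX2, the cytosolic peroxiredoxin best known from red blood cells, had 2489 counts (163.5 CPM) in lean and 1949 (145.8 CPM) in non-lean muscle. Its log2 ratio was -0.17 [-0.25, -0.08] and, with total counts, -0.02 [-0.11, 0.06]. The 2 cytosolic peroxiredoxins were thus on opposite sides of 0 under TMM scaling.

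Against PRDX2, each of the other matched peroxiredoxins had a larger count share in the non-lean library. The PRDX3 count was 0.942 times that of PRDX2 in lean and 1.45 times in non-lean muscle, a 1.54-fold shift [1.42, 1.67]. For PRDX1 the ratio to PRDX2 went from 0.320 to 0.486, a 1.52-fold shift [1.36, 1.70]. PRDX5 against PRDX2 went from 0.675 to 0.859, a 1.27-fold shift [1.16, 1.39]. Within the mitochondrial group the PRDX3 count was 1.39 times that of PRDX5 in lean and 1.69 times in non-lean muscle, a 1.21-fold shift [1.11, 1.33]. PRDX2 thus stood apart from PRDX1, PRDX3 and PRDX5 by more than counting error. PRDX4, given below, was not set against it.

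**Figure D4:**
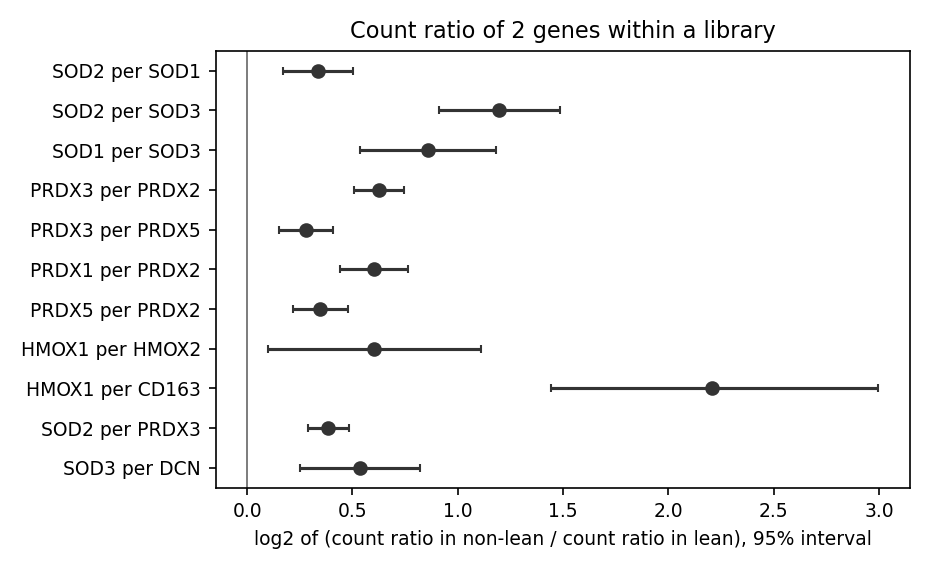
Log2 of the count ratio of 2 genes in the non-lean library over the same ratio in the lean library, with 95% exact conditional intervals. Values above 0 mean that the first gene gained counts against the second, and all 11 pairs, each written with the gaining gene first, lie above 0. Without the SOD2 model NM_001287631.1 the linear shifts of SOD2 per SOD1 and SOD2 per PRDX3 are 0.987 and 1.02.

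CAT, the catalase of peroxisomes, had 889 counts (58.4 CPM) in lean and 954 (71.3 CPM) in non-lean muscle. It was 1.22-fold higher, at 0.29 [0.16, 0.42], inside the quartiles of all tested genes. Genes of the peroxisome had a median log2 ratio of 0.05, with 6 of 24 intervals above 0, a share near the 25.8% of all tested genes, and 4 below, beside 28.7%. With total counts the intervals were 8 above, beside 35.0%, and 2 below, beside 20.9%. HSD17B4, an enzyme of peroxisomal fatty acid oxidation, was highest in that list, at 0.68 [0.49, 0.88]. PEX26 and PEX10, which serve the import of peroxisomal proteins, were lowest, at -0.74 [-1.002, -0.49] and -0.63 [-1.02, -0.26]. The most abundant member, PEX19, was at -0.04 [-0.15, 0.07].

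HMOX1, the inducible haem oxygenase, had the highest ratio of the 9 genes and the fewest counts. It had 67 counts (4.40 CPM) in lean and 126 (9.42 CPM) in non-lean muscle, 2.13-fold higher, at 1.09 [0.66, 1.55]. A ratio as high or higher was found in 4.17% of tested genes. The interval of the fold, 1.58 to 2.92, held 2. HMOX2, the constitutive form, named after its values were seen, had 267 and 331 counts and a ratio of 0.50 [0.26, 0.73]. HMOX1 gained on HMOX2 by 1.52-fold [1.07, 2.16].

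Macrophages are a known source of HMOX1, and their markers were lower in the same library. Of 12 macrophage markers 10 were tested, and 9 had intervals below 0 and none above, beside 28.7% and 25.8% of all tested genes. With total counts they were again 9 and 0, beside 20.9% and 35.0%. The summed level of the 12 markers was 132.3 CPM in lean and 38.8 CPM in non-lean muscle. CSF1R and LYVE1, the markers with the most counts, were at -1.49 [-1.80, -1.19] and -2.50 [-2.91, -2.13]. CD163, the macrophage receptor for haemoglobin, also named after its values were seen, had 79 and 32 counts, and HMOX1 gained on it by 4.62-fold [2.72, 7.98]. No macrophage marker of the list was at 0. The part of macrophages in the HMOX1 value was not tested. In whole muscle, fewer cells of a type and less RNA per cell cannot be told apart.

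Other haem and iron genes had intervals on both sides of 0. Of 16 tested genes of haem synthesis, haem breakdown and iron handling, 6 had intervals above 0 and 6 below, beside 25.8% and 28.7% of all tested genes, and the median was 0.01. This split was 10 above and 1 below with total counts, beside 35.0% and 20.9%, and the median was -0.02 with DESeq2 size factors. PPOX, an enzyme of haem synthesis, was at 0.54 [0.14, 0.94]. FECH, which inserts iron to complete haem, and ALAD, an early enzyme of the path, were lowest, at -0.67 [-0.86, -0.48] and -0.47 [-0.94, -0.01]. FTH1 and FTL, the ferritin chains that store the iron freed from haem, had 10830 and 9137 and 2801 and 2410 counts, with ratios of -0.06 [-0.10, -0.02] and -0.03 [-0.11, 0.05]. Ferritin genes have many near-identical pseudogene copies, so their counts depend on how reads were divided. UROS, the third most abundant of this list, was at 0.50 [0.35, 0.65].

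HMOX1 and PRDX1 are known NRF2 targets. Genes of the wider NRF2 list were spread on both sides of 0. Of its 21 tested genes 3 had intervals above 0, beside 25.8% of all tested genes, and 7 below, a share near the 28.7% of all tested genes. The list's median was -0.13. With total counts these became 6 above, beside 35.0%, and 5 below, beside 20.9%, with a median of 0.01 where that of all tested genes was 0.13. The part of NRF2 in the HMOX1 and PRDX1 values was not tested. NFE2L2, which encodes NRF2, had 841 and 666 counts and a ratio of -0.15, with an interval that ended just below 0. KEAP1, its cytosolic inhibitor, had 913 and 617 counts and a ratio of -0.38 [-0.53, -0.23], and NQO1, a widely used target, was at -0.21 [-0.44, 0.02]. These 3 genes are named beyond the naming rule, after their values were seen. OSGIN1 and MAFG were highest, at 0.65 [0.36, 0.94] and 0.31 [0.16, 0.46]. TKT, a transketolase of the pentose phosphate path, and MAFK, a small MAF partner of NRF2, were lowest, at -1.32 [-1.66, -1.005] and -1.29 [-1.62, -0.96]. SQSTM1, an abundant autophagy receptor, was at 0.15 [0.10, 0.21].

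Thioredoxins and their reductases reload the peroxiredoxins, and glutaredoxins serve the glutathione route. In the list of both 6 of 11 intervals lay above 0, beside 25.8% of tested genes, and 1 below, beside 28.7%, and the median was 0.24. With total counts 9 lay above 0, beside 35.0% of tested genes. Of the 6 intervals above 0, 4 were those of glutaredoxins, and those of TXN, TXNRD1, TXNRD2 and TXNRD3 held 0. GLRX, the cytosolic glutaredoxin, was highest at 0.73 [0.58, 0.88], followed by TXNRD3 at 0.45 [-0.12, 1.02]. TXN2, the mitochondrial thioredoxin that serves PRDX3 and PRDX5, had 2063 and 2103 counts and a ratio of 0.21 [0.13, 0.30]. TXNL1, an abundant thioredoxin-like gene, was at 0.23 [0.13, 0.33]. TXNIP, which binds and inhibits thioredoxin, was the list's most abundant gene and its only one below 0, with 14195 and 6847 counts and a ratio of -0.87 [-0.91, -0.82]. TXNRD2, the mitochondrial reductase, was at 0.02 [-0.31, 0.35].

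PRDX4, the peroxiredoxin of the endoplasmic reticulum, was not among the listed enzymes and had 166 and 158 counts, a ratio of 0.12 [-0.21, 0.44]. SRXN1, the sulfiredoxin that repairs overoxidised peroxiredoxins, was at -0.19 [-0.56, 0.18]. Among the sestrins, stress proteins that restrain growth signalling, SESN2 was at 0.68 [0.29, 1.09], SESN1 at 0.14 [-0.02, 0.29] and SESN3 at -0.81 [-0.95, -0.67]. These 5 genes together had 1 interval above 0 and 1 below, beside 25.8% and 28.7% of all tested genes. With total counts 2 were above, beside 35.0%, and 1 below, beside 20.9%. Of 4 genes of copper supply 1 had an interval above 0, a share near the 25.8% of all tested genes, and 0 below, beside 28.7%. CCS, the copper chaperone of SOD1, had 72 and 61 counts and a ratio of -0.05 [-0.57, 0.46], and ATOX1 was at 0.11 [-0.06, 0.28]. The copper exporter ATP7A was at -0.10 [-0.75, 0.53]. The interval above 0 was that of the copper importer SLC31A1, at 0.72 [0.33, 1.11].

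The glutathione system is the other main route of peroxide removal. Of its 18 tested genes 9 had intervals above 0 and 3 below, beside 25.8% and 28.7% of all tested genes, and the median was 0.17. With total counts they were again 9 and 3, beside 35.0% and 20.9%. GPX4, which reduces lipid peroxides, had 2509 and 3150 counts and a ratio of 0.51 [0.44, 0.59], while GPX3, the secreted glutathione peroxidase, had 5121 and 2096 counts and a ratio of -1.10 [-1.18, -1.03]. The secreted peroxidase and the secreted dismutase SOD3 were thus both lower under TMM scaling. GSTZ1 and GSS were highest, at 0.95 [0.66, 1.24] and 0.61 [0.30, 0.93], and the abundant GSTP1 was at 0.22 [0.14, 0.29]. GSTM2 and MGST1 were lowest, at -2.74 [-2.91, -2.59] and -1.45 [-2.03, -0.92]. GSTM2 belongs to a family of near-identical genes, so its value is uncertain.

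Of 12 genes of oxidant producing enzymes 7 were tested. Their intervals were 1 above 0 and 4 below, beside 25.8% and 28.7% of all tested genes, and the median was -0.27. With total counts 3 were below, beside 20.9%, and the median was -0.13. The monoamine oxidases MAOA and MAOB, which make hydrogen peroxide at the outer mitochondrial membrane, were at -0.27 [-0.44, -0.11] and -0.46 [-0.68, -0.24]. CYBB and CYBA, the membrane subunits of the phagocyte oxidase, were at -1.14 [-2.10, -0.31] and -0.44 [-0.68, -0.21], and CYBB is also a macrophage gene. RAC2 was at 0.45 [-0.36, 1.28]. DUOX1, a dual oxidase, had 3 counts in lean and 28 in non-lean muscle, a ratio of 3.21 [1.71, 5.77] that rests on very few counts. Of 8 metallothionein genes 1, MT3, was matched, and it had 1 count in each library.

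**Figure D5:**
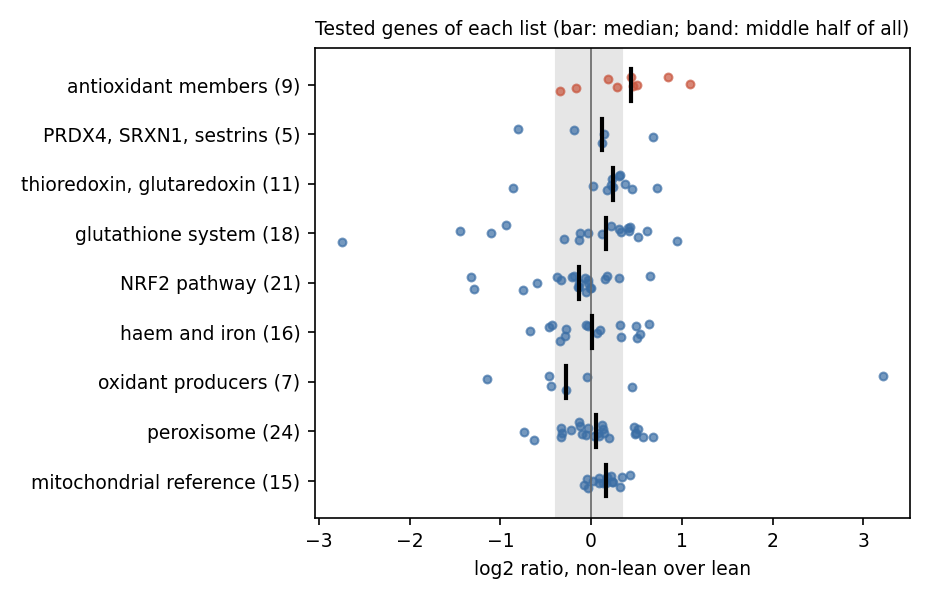
Log2 ratio, non-lean over lean, of every tested gene in each list, with the number of genes in brackets, a black bar at the median and a grey band over the quartiles of all tested genes. The 9 antioxidant genes have a median of 0.44 and the NRF2 pathway list one of -0.13.

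Markers of fibre type and of other cells differed beside these genes. Slow fibres hold more mitochondria than fast ones, and their markers were higher in the non-lean library, with 8 of 9 tested intervals above 0 while MYH7, of the 10 listed, was not matched and is not analysed here. The exception was CASQ2, the slow calsequestrin, with 697 and 61 counts at -3.32 [-3.73, -2.95], named after its values were seen. Of the 9 slow fibre intervals 8 thus lay above 0 and 1 below, beside 25.8% and 28.7% of all tested genes. With total counts they were again 8 and 1, beside 35.0% and 20.9%. The slow markers had a summed level of 9963 CPM in lean and 17369 CPM in non-lean muscle. MYL2 and TNNC1, the slow markers with the most counts, were at 0.32 [0.30, 0.34] and 0.89 [0.87, 0.91]. Fast fibre markers had 10 of 11 intervals below 0 and 1 above, beside 28.7% and 25.8% of all tested genes. With total counts 7 were below, beside 20.9%, and 3 above, beside 35.0%. They summed to 136194 and 100850 CPM, with MYH1 at 47036 and 24747 CPM, and their median was -0.34. Many fibre markers had high counts, so that small ratios also had intervals clear of 0, as in MYH2 at -0.05 [-0.07, -0.04]. Reference genes of the mitochondrial matrix and outer membrane had a median of 0.17, with 8 of 15 intervals above 0 and 1 below, beside 25.8% and 28.7% of all tested genes. All 15 were above 0 with total counts, beside 35.0%. Among them TFAM was at 0.43 [-0.03, 0.88] and MDH2 at 0.33 [0.30, 0.37], while HSPA9 was at -0.05 [-0.13, 0.02]. VDAC1, the abundant outer membrane channel, was at 0.32 [0.27, 0.36]. The ratios of SOD2 and PRDX3 were above those of all 15 genes, though the wide interval of TFAM overlapped both, and the ratio of PRDX5 was near their median. The part of fibre type in the values of SOD2, PRDX3 and PRDX5 was not tested.

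SOD3 is made by fibroblasts and by cells of the vessel wall, and markers of several of these were lower too. All 7 fibroblast markers had intervals below 0, also with total counts, beside 28.7% of all tested genes, or 20.9% with total counts. Their median was -1.75, and their summed levels were 1032 CPM in lean and 437.5 CPM in non-lean muscle. Endothelial markers had 6 of 7 intervals below 0, or 5 with total counts, beside the same shares, and summed levels of 501.9 and 334.7 CPM. Smooth muscle and pericyte markers had 3 of 7 below 0 and 1 above, beside 28.7% and 25.8% of all tested genes. With total counts 2 were below, beside 20.9%, and 1 above, beside 35.0%. Their median was -0.10, or 0.04 with total counts, and their summed levels were 267.7 and 223.1 CPM. No marker of these 3 lists was at 0. The SOD3 ratio of -0.35 was nearer to 0 than the fibroblast and endothelial medians of -1.75 and -0.65. It was further from 0 than the smooth muscle and pericyte median of -0.10. SOD3 gained 1.45-fold [1.19, 1.77] on DCN, the fibroblast marker with the most counts. DCN, at -0.89, was also the fibroblast marker nearest to 0. The part of these cells in the SOD3 value was not tested.

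PRDX2 and CAT are abundant in red blood cells. Of 8 erythroid markers 6 were matched and 1 was tested, HBB, with 59 and 71 counts. SLC4A1 was at 0 in both libraries and ALAS2 at 0 and 1. The summed erythroid level was 4.07 CPM in lean and 6.28 CPM in non-lean muscle. The part of blood in the PRDX2 and CAT values was not tested. Neutrophil markers were all under the limit, with a summed level of 1.25 and 2.39 CPM and MPO at 0 in the non-lean library. Of 7 adipocyte markers 6 were tested, with 5 intervals below 0 and 1 above, beside 28.7% and 25.8% of all tested genes. The marker above 0 was FABP4, at 0.26 [0.05, 0.47]. With total counts 4 were below, beside 20.9%, and 1 above, beside 35.0%. The summed level of the 7 markers was 150.9 and 101.2 CPM.

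Genes of short span were slightly higher in non-lean muscle as a group, and most of the antioxidant genes have a short span. When tested genes were divided into 5 equal groups by the span of the gene in the reference table, the median log2 ratio was 0.15 in the shortest group and -0.20 in the longest. SOD3, PRDX2 and PRDX5 were in the shortest group, CAT in the middle one and the other 5 in the one between them, whose median was 0.06. Relative to its own group PRDX5 was at 0.03 [-0.07, 0.12], an interval that held 0. PRDX2 was then at -0.32 [-0.41, -0.23] and SOD3 at -0.50 [-0.79, -0.22]. Gene span is only a rough stand-in for transcript length, and the part of length in these ratios was not tested.

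In the reference gene order SOD1 overlaps SCAF4 and PRDX1 overlaps MMACHC, and the labels name no step that marks strand. SCAF4 had 273 and 214 counts, a ratio of -0.16 [-0.43, 0.10], and MMACHC had 146 and 100, a ratio of -0.36 [-0.74, 0.02]. The part of these neighbours' reads in the SOD1 and PRDX1 values was not tested. No other gene of the reference table with counts in these libraries overlapped the 9 genes.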

How the data were processed

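The deposited files hold expected counts, estimated read counts per RefSeq transcript that the authors did not normalise, per the file headers and the differing totals. Tools named, with no role, in the submitters' processing notes are RSEM 1.3.3, STAR 2.7.8a and Trim Galore 0.6.6. The genome build is not given in the sources used here. Each file had 76183 transcripts, and their values were summed per gene and rounded. Of 11294 placeholder symbols 720, and 593 older symbols, took current names from a RefSeq table of T2T-MFA8v1.1. The 24 symbols turned into dates stayed 1 gene each.

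Libraries were scaled by TMM in edgeR 4.0.16 (R 4.3.3), with factors of 0.952 for lean and 1.05 for non-lean. Ratios were computed with scipy 1.17.1, pandas 2.3.3 and numpy 2.4.6 under Python 3.11.15, with a prior count of 0.5, and checked on simulated data. Figures used matplotlib 3.10.9. The interval is the exact 95% interval of the binomial split of a gene's summed count. PCR reads are not independent molecules. A floor of 3 counts is 0.197 CPM in lean and 0.224 CPM in non-lean.

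Members and lists were chosen with earlier results of these data known. In each list the 2 highest, the 2 lowest and the 3 most abundant tested genes could be named, and in marker lists the 2 most abundant and any marker at 0. Other names were chosen after their values were seen. Some list genes are counted in medians and totals but their own values are not reported here. Alternatives were total counts, DESeq2 1.42.0 size factors, upper quartile scaling, no filter, a mean CPM of at least 5, no rounding, a prior count of 2 and, added later, 5 groups by gene span and SOD2 without 1 model.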

Additional observations from a re-analysis of the deposited data

How the results depend on the processing

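Under DESeq2 size factors, upper quartile scaling, no filter on low counts, a mean CPM of at least 5, unrounded counts and a prior count of 2, every antioxidant gene stayed within its main counting interval, and the counts of genes above or below 0 or past 2-fold stayed within 1.5 times. With total counts 0 antioxidant genes had an interval below 0, in place of 2, since that scaling moves all genes up. SOD2 was then at 0.99, CAT at 0.43, PRDX1 at 0.58, PRDX3 at 0.60 and PRDX5 at 0.32, each outside its main interval, and PRDX2 at -0.02. Outside them too were SOD2 without 1 transcript model, at 0.49, and, within gene span groups, PRDX2 at -0.32 and PRDX5 at 0.03. The share of higher genes among tested genes past 2-fold was 40.7% with TMM, 672 higher and 980 lower, and 56.0% with total counts, 930 higher and 731 lower, and 46.2% and 1081 higher without the filter. The planned comparison within 5 groups of protein length was not run, because protein lengths were not used here. No paired analysis was possible because each group has 1 library, and for the same reason no library could be left out.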
